A study of Homo sapiens with 24 samples.

Results

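Active promoters and enhancers carry histone H3 acetylated on lysine 27 (H3K27ac), and ChIP-seq with an antibody to H3K27ac finds the DNA bound to such histones. The regions described here were marked in MCFDCIS (DCIS) cells that carry a control hairpin and were not listed as marked after knockdown of ANCO1. They were selected on presence alone: a region of the deposited table of DCIS shCTRL H3K27ac over input (shGFP in the authors' naming) was a control-only region if it overlapped no region of the matching DCIS shANCO1 table by 1 bp or more. There were 4364 control-only regions among 15482 DCIS shCTRL regions. The other 11118 are called shared regions, and 5901 DCIS shANCO1 regions that overlapped no shCTRL region are called knockdown-only regions.

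The study held 24 libraries in 8 groups of 3, which crossed 2 human mammary epithelial lines with a hairpin (shANCO1 or shCTRL) and with H3K27ac immunoprecipitation or input chromatin. MCF10A (10A) cells do not form tumours, and DCIS cells descend from the same lineage and model ductal carcinoma in situ. All cells had been infected with lentivirus, selected with puromycin and grown in 1 medium with horse serum, EGF, hydrocortisone, insulin and cholera toxin. The labels give neither the hairpin sequence nor whether the 3 libraries of a group came from separate infections or cultures, so the authors' p-values may cover technical spread only. The study names its shANCO1 #3 line for the comparison of H3K27ac regions with control. With 1 knockdown hairpin, effects of that hairpin or line cannot be told apart from those of ANCO1 loss. The deposited tables give 1 line per region for the 3 libraries of a group together. They give no value per library, so the depth, the spread between replicates and the knockdown of ANKRD11, the gene that encodes ANCO1, were not analysed here.

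ANCO1 is a large ankyrin-repeat protein that binds p160 nuclear receptor coactivators and recruits histone deacetylases, which remove acetyl groups from histones. Acetylation of H3K27 is written by EP300 and CREBBP. At promoters it usually sits beside the transcription start site (TSS), and distal acetylated regions are often enhancers whose use differs between cell types. The epithelial identity of the control cells was read from regions within 1 kb of a TSS. DCIS shCTRL cells had such a region at KRT5, ITGA6, EPCAM, CDH1, KRT8 and KRT18, had none at the basal markers KRT14 and TP63, and had none at PTPRC, PECAM1, PDGFRB and COL1A1, which mark leukocytes, endothelium and stroma.

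The DNA under 6 control-only regions is printed first, because the largest decreases and the longest control-only stretches lay at such sites. The first 2 are among the 4 regions, on separate tested intervals, with the lowest false discovery rate (FDR) among decreases in the deposited DCIS table of shANCO1 against shCTRL. The other 4 have the lowest FDR within the gene in 4 of the longest stretches of control-only regions, and these 4 genes were chosen after their values were seen. Each sequence is the central 300 bases of its region on the plus strand of GRCh38, read from the reference genome and outside annotated exons of protein-coding genes. Capitals mark matches to any of 11 short motifs that are listed with the motif counts further on.

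chr20:56703351-56703650, plus strand, nearest TSS TFAP2C: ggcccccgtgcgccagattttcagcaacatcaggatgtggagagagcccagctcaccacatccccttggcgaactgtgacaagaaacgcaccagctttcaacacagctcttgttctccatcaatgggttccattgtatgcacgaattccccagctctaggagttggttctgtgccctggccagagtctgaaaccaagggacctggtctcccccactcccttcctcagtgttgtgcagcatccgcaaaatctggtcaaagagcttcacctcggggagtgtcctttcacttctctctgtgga
chr14:103248451-103248750, plus strand, nearest TSS EIF5: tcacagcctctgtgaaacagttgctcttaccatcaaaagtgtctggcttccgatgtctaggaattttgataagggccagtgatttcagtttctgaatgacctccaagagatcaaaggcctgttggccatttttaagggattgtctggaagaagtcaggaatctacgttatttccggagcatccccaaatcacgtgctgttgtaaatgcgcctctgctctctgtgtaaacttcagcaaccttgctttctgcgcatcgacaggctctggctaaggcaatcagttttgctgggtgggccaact
chr1:54323001-54323300, plus strand, SSBP3 intron: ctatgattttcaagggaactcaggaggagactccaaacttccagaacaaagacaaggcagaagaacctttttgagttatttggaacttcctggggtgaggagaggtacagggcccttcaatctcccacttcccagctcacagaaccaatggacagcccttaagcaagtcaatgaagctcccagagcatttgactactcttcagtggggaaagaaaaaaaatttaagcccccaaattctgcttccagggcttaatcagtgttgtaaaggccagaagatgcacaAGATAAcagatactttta
chr20:53099901-53100200, plus strand, TSHZ2 intron: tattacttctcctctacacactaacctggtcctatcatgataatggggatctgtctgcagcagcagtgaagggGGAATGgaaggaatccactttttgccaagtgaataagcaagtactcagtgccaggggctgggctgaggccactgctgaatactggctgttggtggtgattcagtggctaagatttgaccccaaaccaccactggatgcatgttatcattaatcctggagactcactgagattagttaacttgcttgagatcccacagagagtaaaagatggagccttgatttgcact
chr5:172453351-172453650, plus strand, SH3PXD2B intron: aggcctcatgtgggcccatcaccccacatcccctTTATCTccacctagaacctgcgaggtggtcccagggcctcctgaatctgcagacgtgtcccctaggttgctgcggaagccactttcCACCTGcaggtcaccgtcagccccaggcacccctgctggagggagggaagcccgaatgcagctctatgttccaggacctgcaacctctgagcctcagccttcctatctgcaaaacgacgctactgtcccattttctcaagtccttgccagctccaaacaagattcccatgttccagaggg
chr3:37693901-37694200, plus strand, ITGA9 intron: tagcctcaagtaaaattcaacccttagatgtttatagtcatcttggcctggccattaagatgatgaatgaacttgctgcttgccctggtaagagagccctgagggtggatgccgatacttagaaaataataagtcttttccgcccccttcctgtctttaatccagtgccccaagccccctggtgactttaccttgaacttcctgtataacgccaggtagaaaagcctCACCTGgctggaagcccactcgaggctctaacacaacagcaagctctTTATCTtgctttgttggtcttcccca

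Capitals mark a TEAD match in the TSHZ2 sequence, a GATA match in the SSBP3 sequence, and a GATA match with an E-box match in the SH3PXD2B and ITGA9 sequences. The chr20 sequence nearest to TFAP2C and the chr14 sequence held no match to any of the 11 motifs. The regions of lowest FDR that were not printed did hold matches. The central bases chr16:66224101-66224400 held a RUNX and a GATA match, and chr19:39876301-39876600 held a TEAD match. None of the 6 held the AP-1 letters.

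Control-only regions were narrow and mostly distal. Their median width was 300 bp (quartiles 200 and 500 bp), against 600 bp (400 and 1000 bp) for shared regions. The narrowest width in the tables, 200 bp or 1 tested window, was that of 1457 control-only regions (33.4%) and of 1137 shared regions (10.2%). A TSS of a protein-coding gene lay within 1 kb of 1388 control-only regions (31.8%) and of 6346 shared regions (57.1%). Introns held 2006 control-only regions (46.0%), 1703 (39.0%) lay outside protein-coding genes and 655 touched an exon. Among shared regions the exonic share was 40.2%. The median GC content was 45% in control-only regions and 53.1% in shared ones, and CpG dinucleotides occurred at a median of 12.5 and 36.7 per kb. In all, control-only regions covered 1794 kb and shared regions 9160 kb.

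All DCIS shCTRL regions were listed on the contrast over input, so high fold changes there were fixed by the selection and are given as a description. The authors' log2 fold change over input, which is that of 1 representative window per region, had a median of 4.66 in control-only regions (quartiles 3.62 and 6.67, range 2.21 to 8.07) and of 3.97 in shared regions. Within bins of GC content that order held in the lowest bin. At a GC content under 45% the medians were 6.63 and 5.79, at 45% to 55% they were 3.97 and 4.01, and at 55% or more they were 3.45 and 3.50. The authors' FDR over input ran the other way, with medians of 3.73e-10 in control-only and 4.92e-12 in shared regions. All but 2 DCIS shCTRL regions had an FDR of 3.02e-06 or lower. Sites with a weak mark were thus not listed, and these fold changes do not rank the strength of the mark between the classes.

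Absence from the knockdown table does not mean absence of the mark. The highest FDR in the DCIS shANCO1 table was 1.24e-08, so that table lists only regions far past the usual threshold, and a weaker mark would not be in it. Among DCIS shCTRL regions 2 had an FDR over 0.05. Both were control-only regions at HBB, the beta-globin gene, on chromosome 11, with FDRs of 0.217 and 0.228 and log2 fold changes over input of 2.96 and 3.50.

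The distance from a control-only region to the nearest DCIS shANCO1 region ranged widely. Its median was 9100 bp (quartiles 600 and 59975 bp). At one end, 1370 control-only regions (31.4%) lay under 1 kb from a knockdown-cell region, and 111 of them touched one. At the other end, 785 (18.0%) lay 100 kb or more from any.

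The deposited table that compares DCIS shANCO1 with shCTRL directly used the same immunoprecipitated libraries that chose the regions, so its values are given as a description and nothing is read from their direction. Over all 44790 regions of that table, called tested intervals here, the median log2 fold change was 0.52. At the authors' FDR under 0.05, 4.86% of intervals were down and 23.6% were up. Every control-only region overlapped a tested interval, and the 4364 regions fell in 3766 different intervals. Regions in the same interval carry its single value and call. Counts of regions down or up, here and at the genes and runs below, are therefore not counts of separate tests. The median at control-only regions was -0.78 (quartiles -1.40 and 0.11), 1131 (25.9%) were down, 124 (2.84%) were up and 3109 were not called. Thus most control-only regions had no called change. At shared regions the median was 0.49, with 376 down and 1803 up, and at knockdown-only regions it was 1.42, with 14 down and 3691 up.

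**Figure D1:**
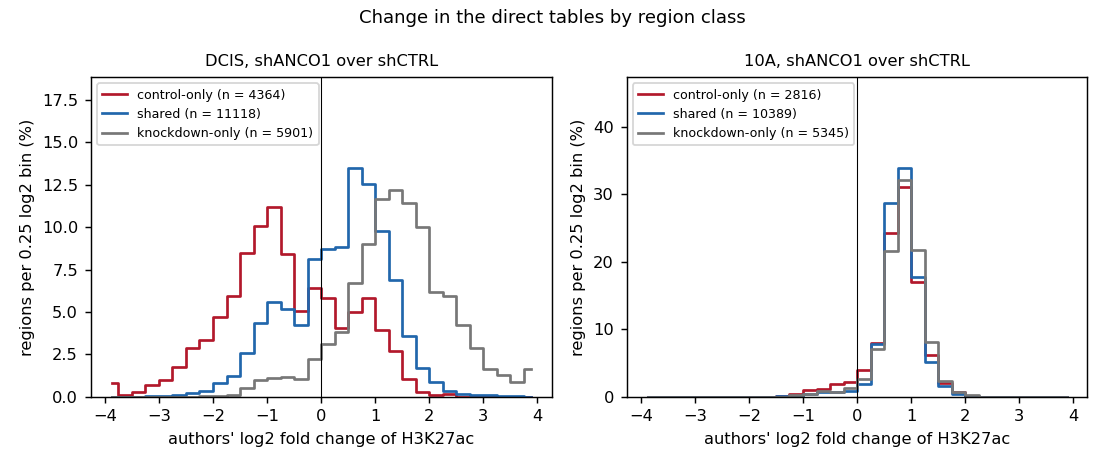
Percent of regions (y axis) in bins of 0.25 on the authors' log2 scale, shANCO1 over shCTRL (x axis), for control-only, shared and knockdown-only DCIS regions; values past -4 or 4 are in the end bins. In DCIS the medians were -0.78, 0.49 and 1.42, while in 10A the medians were 0.80, 0.81 and 0.87, with 6.71% of control-only and 2.93% of shared regions below 0.

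The values differed with distance from the nearest knockdown-cell region, though the median did not fall at every step. The 111 touching regions had a median of 0.58, with 1 down. For those under 1 kb away but not touching, the median was -0.09 and 143 of 1259 (11.4%) were down. Between 1 and 9.9 kb it was -0.94 and 240 of 853 (28.1%) were down, from 10 kb to under 100 kb it was -0.89 and 404 of 1356 (29.8%) were down, and at 100 kb or more it was -1.18 and 343 of 785 (43.7%) were down. Just outside the rule, 272 shared regions had only 1 to 100 bp in common with a knockdown-cell region, and their median of 0.55 was close to the 0.58 of the touching control-only regions. A further split, made after the data were seen, used the same values and is largely the distance split again, so it adds no separate support. For 1491 control-only regions the tested interval also held a DCIS shANCO1 region, with a median of -0.04, 179 down and 103 up. For the other 2873 the median was -0.96, with 952 down and 21 up.

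**Figure D2:**
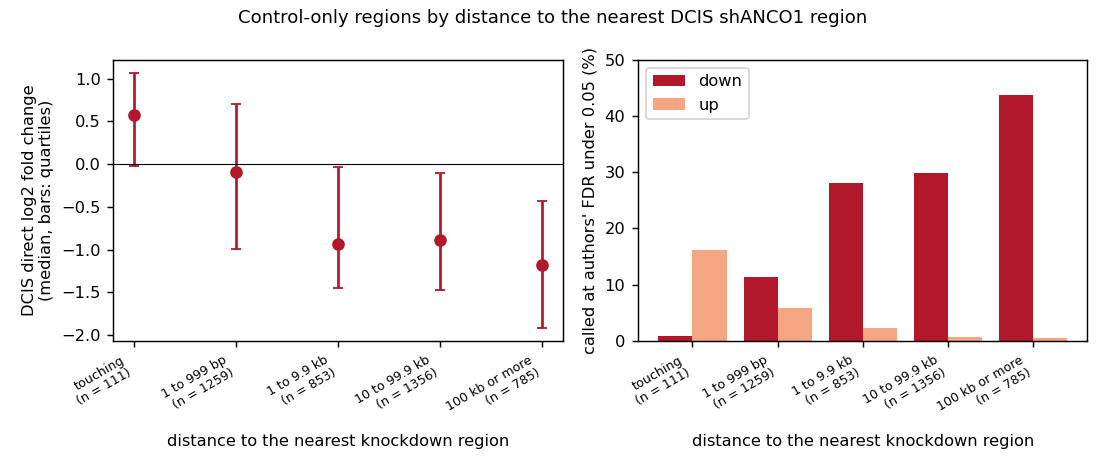
Control-only regions by distance to the nearest DCIS shANCO1 region (x axis). Left, median and quartiles of the authors' DCIS direct log2 fold change, which was 0.58 for touching regions, -0.94 at 1 to 9.9 kb, -0.89 from 10 kb to under 100 kb and -1.18 at 100 kb or more; right, percent called down or up at FDR under 0.05, with 0.901% down for touching regions and 43.7% at 100 kb or more.

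Width went with the size of the change as well. Control-only regions of 200 bp had a median of -0.40 and 14.4% were down. Those of 600 to 1000 bp had a median of -1.28 and 48.6% were down. In the 178 regions over 1000 bp the median was -1.78, 140 (78.7%) were down and 0 were up. Shared regions moved the same way by less. From 200 bp to over 1000 bp their median went from 0.82 to 0.33 and the share down from 0.88% to 8.15%. Control-only regions at promoters changed less: with a TSS within 1 kb the median was -0.27 and 100 of 1388 were down, against -0.997 and 1031 of 2976 without one. Shared regions also changed less there. With a TSS their median was 0.27 and 81 of 6346 were down, against 0.80 and 295 of 4772 without one.

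Marking in 10A was then read from the 10A tables, whose libraries played no part in choosing the regions. Of all DCIS shCTRL regions, 42.6% overlapped a 10A shCTRL region and 69.4% a 10A shANCO1 region. Of control-only regions, 718 (16.5%) overlapped a 10A shCTRL region and 1661 (38.1%) a 10A shANCO1 region, against 52.8% and 81.7% of shared regions. In neither 10A group was there a region at 2659 control-only regions (60.9%) and at 1975 shared regions (17.8%). The highest FDRs in the 10A tables were similar, at 3.92e-08 and 1.46e-08, so a weak mark in 10A would again be missed.

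The lower share overlapping 10A shANCO1 regions was seen in each width bin and both near and far from promoters, which are splits made after the data were seen. At 200 bp, 41.2% of control-only and 70.4% of shared regions overlapped a 10A shANCO1 region. At over 1000 bp these shares were 16.3% and 84.6%. Wide control-only regions were thus the ones least often marked in 10A, whereas wide shared regions were the ones most often marked. Near a TSS the shares were 70.1% and 92.9%, and away from one they were 23.1% and 66.9%.

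**Figure D3:**
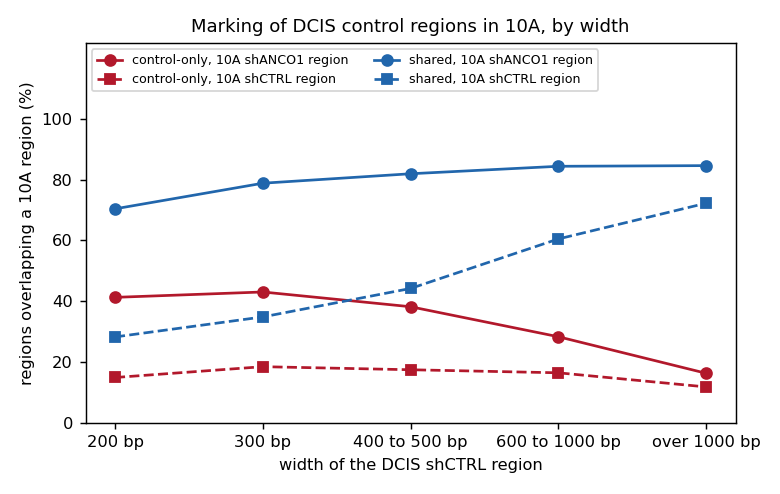
Percent of DCIS shCTRL regions (y axis) that overlapped a 10A shANCO1 region (circles, solid) or a 10A shCTRL region (squares, dashed), by region width (x axis), for control-only (red) and shared (blue) regions. For 10A shANCO1 the control-only share fell from 41.2% at 200 bp to 16.3% over 1000 bp while the shared one rose from 70.4% to 84.6%.

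The DCIS change differed between the 10A classes. The 2659 control-only regions marked in neither 10A group had a DCIS direct median of -1.08 and 1007 were down. The 987 marked in 10A shANCO1 cells only had a median of -0.18, with 61 down, and the 674 marked in both had -0.05, with 52 down. Only 44 were marked in 10A shCTRL cells alone, with a median of -0.36 and 11 down. Of the 1131 control-only regions that were down in DCIS, 63 overlapped a 10A shCTRL region and 113 a 10A shANCO1 region.

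Where a 10A region was present, its fold change over 10A input was near that of 10A regions in general. The 718 control-only regions with a 10A shCTRL region overlapped 10A regions with a median log2 fold change over 10A input of 3.50, against 2.93 for shared regions and 3.32 over that whole table. For 10A shANCO1 the 3 medians were 3.41, 3.45 and 3.40.

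The control-only regions that were tested in 10A were mostly higher there after knockdown, as was the 10A table in general. That table, shANCO1 against shCTRL, had a median of 0.76 over its 50284 tested intervals, of which 43.6% were up and 0.225% down. It tested 2816 of the control-only regions, with a median of 0.80. Of these, 1553 (55.1%) were up and 11 (0.391%) were down. For shared regions, 10389 were tested, with a median of 0.81 and 66.5% up. The zero of this scale is set by the authors' normalization, which is not stated. Near a TSS 65.6% of the tested control-only regions were up in 10A, and away from one 46.0% were. Of the 1131 regions down in DCIS, the 10A table tested 344, of which 128 were up and 6 were down, and it held no tested interval at the other 787.

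Control-only regions often followed one another along the chromosome. When the 15482 control regions were ordered by position, control-only regions formed 2647 runs uninterrupted by a shared region, of which 1740 held a single region and 102 held 5 or more. The 632 regions in runs of 5 or more had a DCIS direct median of -1.37 and 323 (51.1%) were down, against -0.68 and 21.7% for the rest. The same runs were less often marked in 10A shANCO1 cells, at 23.9% against 40.5%.

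The longest run, of 14 regions over 435 kb, lay on chromosome 1 at SSBP3, which encodes a single-stranded DNA-binding partner of LIM-domain cofactors. All 12 control regions over the SSBP3 body were control-only, and no DCIS shANCO1 region lay there. In the DCIS direct comparison 9 of the 12 were down, and the log2 fold changes of the 12 ran from -2.40 to -1.22. Several of the 12 share a tested interval, and so 1 value and call. None of the 12 overlapped a region of either 10A group. At the SSBP3 sequence printed above, the values were -1.98 in DCIS (FDR 5.67e-05) and -0.21 in 10A (FDR 0.654).

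In the SH3PXD2B run, on chromosome 5, every region was down. SH3PXD2B encodes a scaffold of podosomes and invadopodia, the actin-rich protrusions that degrade matrix. It held 9 control-only regions in 70.4 kb, from the promoter into the gene body, and the DCIS values of the 9 ran from -2.76 to -1.44. The widest, at the promoter (chr5:172452801-172454200), had a log2 fold change over input of 3.82 and a DCIS direct value of -1.91 (FDR 2.62e-06). In 10A, 5 of the 9 were tested and all 5 were up, from 0.86 to 1.30, although no 10A region over input overlapped any of the 9. Of all control-only regions tested in 10A, 55.1% were up. The gene kept 1 shared region.

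The ITGA9 run, on chromosome 3, covered ITGA9, which encodes an integrin alpha chain, and CTDSPL, a phosphatase gene. Its 8 regions spanned 370 kb and 6 were down in DCIS. All 6 control regions at ITGA9 were control-only and down, from -2.94 to -2.06, and none overlapped a 10A region. The remaining 2 regions of the run, near CTDSPL, had values of -0.000843 and -0.99 that were not called.

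The chromosome 20 run of 12 regions held TSHZ2, a zinc-finger homeobox gene, with ZFP64 and ZNF217. At TSHZ2 all 4 control regions were control-only, 3 were down, and the lowest value was -3.36 (FDR 9.46e-07). The 3 regions at chr20:53579001-53581200, which share 1 tested interval, had a DCIS value of -0.91 that was not called (FDR 0.685) and a 10A value of 0.91 that was (FDR 0.00522).

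Of the long runs, 1 of 9 regions over 122.4 kb of chromosome 9 had the highest log2 fold changes over input. Its region chr9:13487401-13488100 overlapped LINC01235 in the authors' annotation. The nearest TSS of a protein-coding gene was that of MPDZ. The values over input ran from 6.62 to 7.85, all 9 were down in DCIS, from -4.74 to -1.39, and the 10A table tested none of them. Several of the 9 share a tested interval, and so a DCIS value. Of 8 regions at AKR1C1 and AKR1C2, which encode aldo-keto reductases that act on steroids, 5 were down. Not every long run held decreases: of 9 regions at TNFAIP8 and HSD17B4, 0 were down and the values ran from -1.31 to 1.44.

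**Figure D4:**
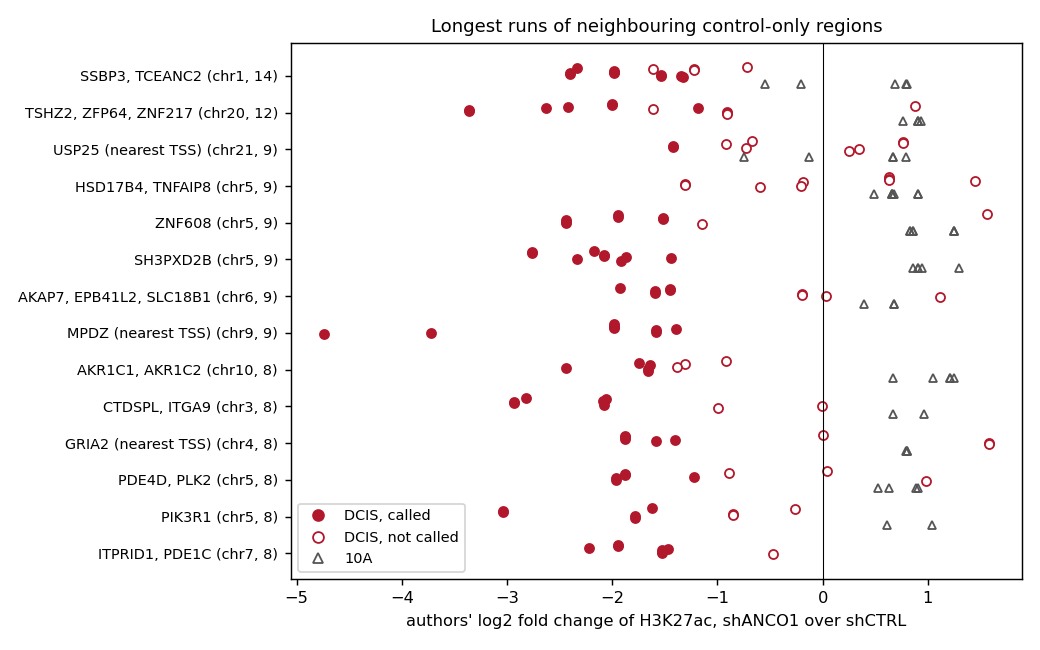
Authors' log2 fold change, shANCO1 over shCTRL (x axis), of each region in the 14 longest runs of neighbouring control-only regions (rows, with chromosome and number of regions); red circles are DCIS values, filled where called at FDR under 0.05, and triangles are 10A values where tested. All 9 SH3PXD2B regions lie below -1.4 in DCIS while its 5 tested 10A values lie above 0.8.

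By gene, 7953 protein-coding genes had a DCIS shCTRL region over their body or in the 5 kb before their start, and 2382 of them had a control-only region. For most, 1837, it was a single one, and 67 genes had 5 or more. All control regions were control-only at 922 genes, and 686 of these had no DCIS shANCO1 region either. Of these 686 genes, 28 had at least 3 regions: at 8 all of them were down in DCIS, at 11 some were, and at 9 none was. At 18 of the 28 no region overlapped a 10A region. Of all control-only regions 60.9% overlapped none, a share over regions and not genes, so this count is not read as particular to the 28. The 7 genes that follow were named after their values were seen. FAIM2, which encodes an inhibitor of Fas-driven apoptosis, had 6 control-only regions that were all down, from -2.64 to -1.82. GPM6B, a membrane glycoprotein gene, had 4 of 4 down, from -2.18 to -1.69. SEMA6A, a transmembrane semaphorin gene, had 3 of 4 down, with a median of -2.19. ADAMTS18, a secreted metalloproteinase gene, NFATC1, a calcium-regulated transcription factor gene, and PPARGC1A, a coactivator gene of mitochondrial metabolism, each had 3 of 3 down, with medians of -3.11, -1.35 and -1.50. At ADAMTS18, NFATC1 and PPARGC1A some of the regions share a value. None of the regions at these 6 genes overlapped a 10A region. RNF31, which encodes a subunit of the linear ubiquitin ligase, was among the 9 genes with none down: 0 of its 4 regions were called down, 3 overlapped a 10A shANCO1 region and all 4 were up in 10A. Over all control-only regions 25.9% were down in DCIS, and 55.1% of those tested in 10A were up there.

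The 10 genes whose bodies held the most control-only regions were PDE4D, SSBP3, EFNA5, RUNX1, EPB41L2, SH3PXD2B, TMEM45A, ADGRL3, ITPRID1 and VGLL4. PDE4D, a cAMP phosphodiesterase gene, led with 16 control-only of 22 control regions, 11 of them down, and a median of -1.71. ITPRID1 had 8 of 9, all 8 down, from -2.74 to -1.47. EPB41L2, a gene of the band 4.1 membrane skeleton family, had 9 of 10, with 5 down. TMEM45A had 9 of 11, with 5 down, and ADGRL3, an adhesion receptor gene of the latrophilin family, had 9 of 13, with 3 down.

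Other genes with many control-only regions did not fall as a block. RUNX1, a transcription factor gene, had 11 control-only of 24 control regions and 26 DCIS shANCO1 regions. Of the 11, 5 were down and 4 were up, from -3.23 to 2.41. EFNA5, an ephrin ligand gene, had 11 of 20, with 0 down, 1 up and a median of -0.12. VGLL4, a cofactor of TEAD factors, had 8 of 9 with a median of -1.13, and 0 were called.

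The 688 control-only regions of at least 5 windows were ranked by log2 fold change over input. The top 10 all lay over 1 kb from a TSS. The highest log2 fold change over input was 8.07, in an intron of CLDN10 (chr13:95564401-95565700), a claudin gene of tight junctions, with a DCIS direct value of -2.15 (FDR 4.98e-07). Next came chr13:79622401-79624200, outside genes, with 8.06 over input and -1.92 in DCIS. A region over an ITPRID1 exon (chr7:31548901-31552100) followed with 8.02 over input and -2.40 in DCIS. The others of the 10 had values over input from 7.77 to 7.98. Single ones lay at STAU2, at TPRG1 and at LINC01235, 150692 bp from the TSS of KRR1, and 180878 bp from that of CRIM1. A pair lay 125086 bp and 127386 bp from the TSS of DCAF4L2. Of the 10, 9 were down in DCIS, and the STAU2 region had -1.08 (FDR 0.0652). The TPRG1 region was the exception in 10A: it overlapped regions of both 10A groups and was up there by 1.27 (FDR 0.0114) while it had -2.24 in DCIS.

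The 10 lowest FDRs among decreases were held by 10 regions on 9 tested intervals. The lowest, 5.56e-14, belonged to an interval on chromosome 16 that holds 2 of them (chr16:66223701-66224800 and chr16:66225101-66225400), 141891 bp and 141291 bp from the TSS of CDH5, and its log2 fold change was -4.31 with 25 of 25 windows down. Another, chr16:66250001-66252300, had -2.99 (FDR 6.97e-11). On chromosome 20, chr20:56702101-56704900 lay 72795 bp from TFAP2C, with -3.35 (FDR 7.80e-14) and 32 of 33 windows down. The largest decrease of any control-only region, -7.39 (FDR 3.71e-13), was that of chr14:103248401-103248800, 85437 bp from EIF5. Introns of FCGBP and CCDC192 held regions with -3.81 and -3.88. The others lay 14745 bp from VPS13A (-4.64), 423496 bp from KLF5 (-3.34) and 44508 bp from ZNF488 (-5.26). None of these 10 regions overlapped a 10A region, and the 10A table tested none of them.

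The lowest FDRs among increases all belonged to regions under 1 kb from a DCIS shANCO1 region. They lay at the RP1L1 promoter in the authors' annotation (1.81, FDR 1.89e-06), outside genes on chromosome 6 (2.32, FDR 6.38e-05), in an intron of PFN2, an actin-binding profilin gene, 678 bp from its TSS (1.66, FDR 0.000104), at KDM4C, a histone demethylase gene (1.63, FDR 0.000108), and near ZNF133 (2.07, FDR 0.000136). Their distances to the nearest knockdown-cell region were 100, 400, 0, 900 and 100 bp. Each value is that of a tested interval wider than the control-only region, so a gain at the region itself is not shown. In the same order, 25 of 45, 3 of 28, 5 of 10, 8 of 26 and 12 of 26 windows were up. On chromosome 6, 3 of the 28 windows were down.

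At promoters, 6776 genes had a DCIS shCTRL region within 1 kb of a TSS, and 664 of them (9.80%) had no DCIS shANCO1 region there. A control-only region lay at 653 of the 664 promoters. By the region with the lowest FDR at each, 56 were down and 2 were up. Over all control-only regions with a TSS within 1 kb, 7.20% were down and 1.30% up. Over all tested intervals the shares were 4.86% and 23.6%. Calls were not counted over all 6776 promoters, so the 56 are not read as particular to these genes. Of the 664, 562 (84.6%) had a 10A shANCO1 region within 1 kb of a TSS and 220 (33.1%) a 10A shCTRL region, against 95.6% and 65.4% of all 6776. Promoters that were down, named after their values were seen, were those of PDE10A, a phosphodiesterase gene (-2.69, FDR 1.01e-10), CHPT1, a choline phosphotransferase gene (-2.63, FDR 1.30e-05), VIPR1, which encodes a receptor for vasoactive intestinal peptide (-2.92, FDR 2.32e-05), and AKR1C3 (-2.18, FDR 0.000600). CHPT1 and AKR1C3 were up in 10A, by 1.24 (FDR 4.78e-05) and 0.86 (FDR 0.0421).

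The 17 gene lists were read as the share of their DCIS shCTRL regions, over genes and 5 kb before them, that were control-only. Over all control regions this share was 28.2%. It was lowest for AP-1 and early response factors, at 1 of 18 regions (5.56%), and for NF-kB, interleukin and chemokine genes, at 1 of 16 (6.25%). It was highest for EMT regulators and mesenchymal genes, at 5 of 8 (62.5%). These counts are small, and no test of a list was made. Over all control-only regions 25.9% were down and 2.84% up in DCIS, and 55.1% of those tested in 10A were up there. Counts of calls at the lists and genes below stand beside these shares and are not read as particular to them.

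In the EMT list, SNAI1, which encodes a repressor of CDH1, had a single control region, at its promoter (chr20:49983001-49983900). It was control-only, with a log2 fold change over input of 2.78 and a DCIS direct value of -2.19 (FDR 1.88e-05), and the 10A value of 0.32 was not called (FDR 0.455). FOXC2 likewise had 1 region, with -1.47 in DCIS, where it was down, and 1.13 in 10A, where it was up. TCF4 and ZEB2 had 1 control-only region each, with -0.60 and -0.55 in DCIS, neither called.

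ANCO1 binds nuclear receptor coactivators, but a link from ANCO1 to the hormone and coregulator genes here was not tested. Of 63 control regions at glucocorticoid response and nuclear receptor genes, 22 (34.9%) were control-only, against 4364 of 15482 over all control regions. Of these 22, 7 were down and 0 up, against 25.9% and 2.84% of all control-only regions. SGK1, a kinase gene induced by glucocorticoids, had 5 control-only of 7 regions, 4 of them down, with a lowest value of -2.67, and 4 of the 5 were up in 10A. Some of these 5 regions share a DCIS value. NR2F2, an orphan receptor gene, had 4 of 7, with 0 called. FKBP5, a receptor co-chaperone gene, had 3 of 8 with values from -1.22 to -1.17, none called, and all 3 were up in 10A. Since 55.1% of all control-only regions tested in 10A were up, these counts are not read as particular to SGK1 or FKBP5. THRB, a thyroid hormone receptor gene, had 2 of 4, 1 down. Among ANCO1 and its partners, 9 of 24 regions (37.5%) were control-only. The coactivator gene NCOA3 held 2, both at -0.08 and not called, and the corepressor gene NCOR1 held 1 at -1.38, not called.

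Among signalling lists, axon guidance and ephrin genes had 26 of 67 regions control-only (38.8%), with 5 down and 1 up. Besides EFNA5, SEMA4B had 5 of 12 with 2 down, SLIT3 had 4 of 6 with 2 down, and SEMA3C had 3 of 5 with 0 down. YAP-TEAD targets and Hippo components had 19 of 53 (35.8%), with 1 down and 0 up. VGLL4 held 8 and TEAD1 held 4, and 0 of these 12 were called, while TGFB2 and WWTR1 held 2 each, also not called. TGF-beta and BMP signalling genes had 17 of 46 (37.0%), with 1 down, which lay at the receptor gene BMPR1B (-1.98). SMAD6 had 4 of 5, BMPR1A 2 of 3 and TGFB2 2 of 5, with 0 called. WNT genes had 8 of 32, and the 2 that were down lay at the coreceptor gene LRP5 and share the value -2.15. AXIN2, FZD7 and LGR4 had 1 each, not called. Notch genes had 5 of 25 (20.0%), with 0 called, of which MAML2 held 3 of its 14. EGF ligand, ERBB and MAPK feedback genes had 10 of 42 (23.8%), with 0 down and 2 up, 1 of them at NRG1 (1.74). PHLDA1 had 2, and SPRED1 and SPRED2 had 1 each.

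Epithelial and transcription factor lists were mixed. Basal and squamous transcription factors had 17 of 46 (37.0%), of which 11 lay at RUNX1, with 5 down and 5 up in the list. TP63 had 2 of 4, 1 of them up (1.35), and OVOL2 and IRX4 had 1 each. Luminal transcription factors had 7 of 37 (18.9%), with 1 down at EHF (-1.66), where 3 of 7 were control-only, and with 2 at TFAP2C and 1 each at GRHL2 and TFAP2A. Epithelial keratins and junction genes had 8 of 39 (20.5%), with 0 called and a median of 0.50, among them 2 each at KRT5 and KRT6B and 1 each at DSP and DSG2. Integrins, laminins and collagens had 9 of 48 (18.8%), of which LAMC1 held 5, with 1 down, and ITGAV, LAMA5 and ITGA6 held 1 each. Cell cycle and senescence genes had 17 of 56 (30.4%), with RB1 holding 7 of its 9, of which 2 were down. CDKN2C held 3, CDK6 held 2 of 16 and CCNE1 its only one, with 0 called. Interferon response genes had 3 of 9 (33.3%), with 1 down at BST2 (-2.15) and 2 at IRF2 that were not called. The single ones of the early response and NF-kB lists were at FOSL2 (0.27) and STAT3 (-0.92), neither called.

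**Figure D5:**
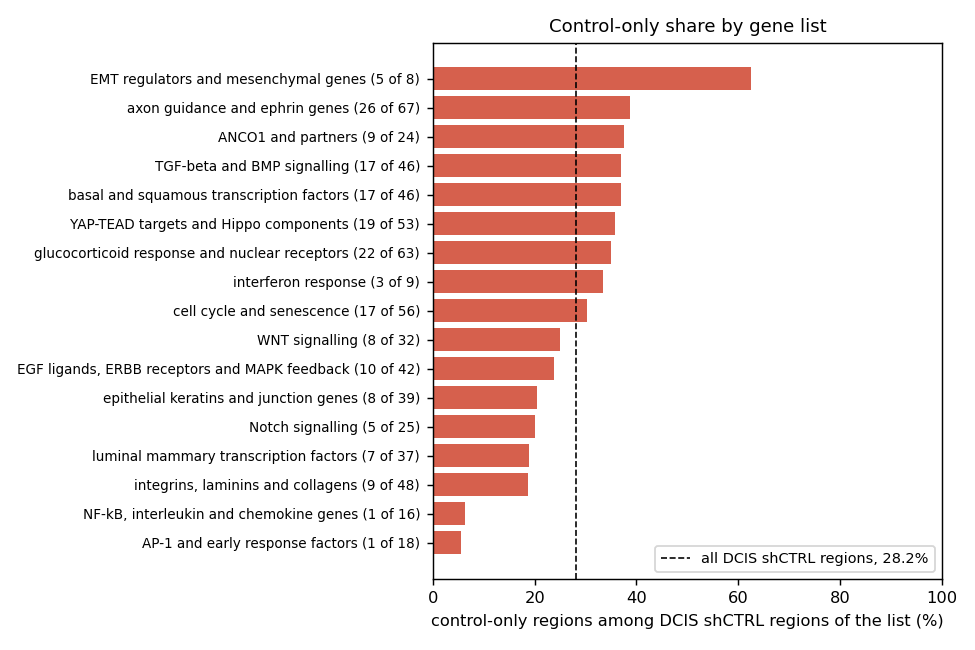
Percent of the DCIS shCTRL regions of each gene list that were control-only (bars, x axis), with the counts beside the list names; the dashed line is the 28.2% over all DCIS shCTRL regions. The lists run from 5.56% for AP-1 and early response factors to 62.5% of only 8 regions for EMT regulators.

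The control-only share of DCIS shCTRL regions also varied by chromosome, from 14.8% (104 of 702) on chromosome 19 to 38.0% (138 of 363) on chromosome 13. On these chromosomes 71.9% and 36.9% of control regions lay within 1 kb of a TSS. The share of control-only regions that were down was 7.69% on chromosome 19 and 36.2% on chromosome 8, where it was highest. Whether the copy number of any locus differed between the lines was not tested.

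Short motifs were searched on both strands in the central 500 bp of each region. The shares are given for control-only, shared and knockdown-only regions in that order, and a match is a description of letters and not a bound site. AP-1 letters (TGACTCA) were in 311 control-only regions, or in 7.13%, 9.36% and 13.8% of the 3 classes. For GATA factors (letters AGATAA) the shares were 24.6%, 17.5% and 21.1%, and for ETS factors (CCGGAAG) they were 4.72%, 10.0% and 5.08%. Steroid receptor letters (ACANNNTGT) were in 12.7%, 9.56% and 10.7%. RUNX letters (TGTGGTT) were in 8.91%, 7.33% and 8.98%, and forkhead letters (TGTTTAC) in 6.85%, 5.44% and 5.39%. For TEAD (GGAATG) the shares were 24.8%, 25.3% and 27.1%, and for the E-box of SNAI and ZEB factors (CAGGTG) they were 29.5%, 32.0% and 38.1%. STAT letters (TTCCNGGAA) were in 1.86%, 2.07% and 2.02%, grainyhead letters (AACCGGTT) in 0.229%, 0.225% and 0.186%, and C/EBP letters (TTGCGCAA) in 0.115%, 0.144% and 0.102%.

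Base composition moved with most of these shares. At a GC content under 45%, GATA letters were in 34.6% of control-only and 32.3% of shared regions, and steroid receptor letters in 16.5% and 15.4%. At 45% to 55% the GATA shares were 21.3% and 18.9% and the steroid receptor shares 11.3% and 10.7%. At 55% or more the GATA order reversed, to 6.93% and 8.23%, and the steroid receptor shares were 6.31% and 5.48%. For AP-1 the shares under 45% were 7.79% against 13.4%, with 8.22% against 11.0% at 45% to 55% and 4.24% against 5.95% above. In the central 300 bp, the length of the printed sequences, AP-1 letters were in 3.71% of control-only and 5.16% of shared regions, GATA letters in 15.8% and 10.7%, TEAD letters in 16.0% and 16.1%, and E-box letters in 18.3% and 20.5%.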

How the data were processed

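H3K27ac and input chromatin of MCF10A and MCFDCIS cells were sequenced in triplicate per group. Per the study's methods, paired-end reads were aligned to GRCh38 with BWA and Rsubread, duplicates were removed with samtools, and windows were tested with csaw; HOMER is also in the submitters' processing notes. Normalization, filtering and merging settings are not given in the sources used here. The 6 deposited tables hold, per region, the authors' log2 fold change of a representative window, a p-value, an FDR (a p-value adjusted by the authors over the table) and numbers of windows. No count or depth per library was used, so no test was made here; the authors' own columns are printed as theirs because they are the only measurement. Their normalization sets the zero of every fold change.

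Regions were intersected (at least 1 bp) with Python 3.11.15, numpy 2.4.6 and pandas 2.3.3. Of several overlapping tested intervals in a direct table, that with the most shared bases was taken. "Down" and "up" mean an FDR under 0.05 with that direction. Genes, exons and TSSs came from GENCODE release 44 (protein-coding, basic transcripts), and none of the 171345 regions ran past a chromosome end. Interval functions were tested on simulated data. Named regions were the 10 with the highest log2 fold change over input among those of at least 5 windows. Also named were the 10 lowest FDRs among decreases and 5 among increases. Named genes were the 10 with most control-only regions and up to 4 per list, unless the text says otherwise. The members and the lists were chosen with earlier results of these data known. Some items are not reported here.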

Additional observations from a re-analysis of the deposited data

How the results depend on the processing

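The shares could move with the rule, the authors' threshold and the window, and 67 alternatives were computed: 27 stayed within the 95% Wilson interval of the value given (for the count, within 1.5 times), and 40 did not. These intervals cover counting error only. Treating as shared only regions covered by at least 50%, 19.8% overlapped a 10A shCTRL region, 41.7% a 10A shANCO1 region, and 37.2% were up in 10A. For regions at least 1000 bp from any knockdown-cell region these shares were 13.8%, 32.2% and 28.2%, with 33.0% down and 1.10% up in DCIS, 25.5% near a TSS and a median of 4.71 over input. With at least 5 windows, 688 regions remained, with 14.8% and 23.8% marked in 10A, 58.9% down and 0.727% up in DCIS, 20.1% up and 0.727% down in 10A, 15.4% near a TSS and a median of 5.36. With an shCTRL FDR under 1e-10, 1450 remained, with 31.5% in 10A shANCO1, 40.6% down and 1.72% up in DCIS, 26.7% up and 0.483% down in 10A, 23.3% near a TSS and a median of 6.79. At an FDR under 0.01, 18.0% were down and 1.21% up in DCIS, and 21.3% up and 0.0917% down in 10A; at 0.1 these were 30.7%, 4.42%, 42.1% and 0.527%. With at least 50% of the region covered, 14.5% and 35.7% were marked in 10A shCTRL and shANCO1. A TSS lay within 2.5 kb of 37.4%, and AP-1 letters were in 2.27% of central 200 bp and 18.9% of central 1000 bp windows. Shares of 10A-tested calls here are over all control-only regions, tested or not, with main values of 35.6% up and 0.252% down.

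Leaving out a library was not possible because the tables give no value per library. No paired analysis was possible because the result comes from no test and the columns carry no replicate. The unknown depth limits what absence of a region can show. The part of region edges in the result for regions within 1 kb of a knockdown-cell region was not tested.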
